A study of Sus scrofa with 23 samples.

Results

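SLA-1, TMP-SLA-3 and IRF1 are the MHC class I genes and the interferon regulatory factor examined here in pig backfat, and they make up 3 of the 25322 gene rows counted in each library. They were taken by identifier, ENSSSCG00000001231 for SLA-1, ENSSSCG00000001227 for TMP-SLA-3 and ENSSSCG00000014277 for IRF1. SLA-1 and IRF1 were chosen by their measured difference between group III and group I, TMP-SLA-3 by its difference between group IV and group I, and SLA-1 also by that between the cDDGS groups together and group I. In those comparisons the values of the 3 genes are therefore a description and carry no test. All 3 genes passed the filter on low counts in each comparison.

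MHC class I molecules sit on the surface of nearly all nucleated cells and show short peptides from inside the cell to cytotoxic T cells. The classical porcine class I genes lie in the swine leukocyte antigen (SLA) complex, differ strongly between haplotypes and resemble each other closely. IRF1 is a transcription factor induced by interferon gamma that activates class I genes and the genes for peptide loading, and IRF2, a relative that binds the same DNA elements, can oppose it.

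RNA was sequenced from the backfat of 23 fattening pigs, crossbred offspring of Polish Landrace and Polish Large White sows and of a Duroc and Pietrain boar. Group I (-DDGS+rapeseed oil), with 7 pigs of which 4 were females, was the control without corn dried distillers grains with solubles (cDDGS), a maize residue of ethanol production. The feed with cDDGS carried rapeseed oil in group II (+DDGS+rapeseed oil; 6 pigs, of which 3 females), beef tallow in group III (+DDGS+beeftallow; 5 pigs, of which 2 females) and coconut oil in group IV (+DDGS+coconut oil; 5 pigs, of which 3 females). The males were castrated, the diets were balanced for protein and energy, and neither the parentage of single pigs nor their SLA haplotypes are given in the sources used here. A backfat sample holds adipocytes together with vessel and immune cells. The 4 adipocyte markers matched, among them PLIN1, which coats lipid droplets, and LIPE, the hormone-sensitive lipase, summed to between 1687 and 2788 CPM (reads scaled to 1000000 reads on genes) in all 23 pigs, and the 3 matched B cell markers to at most 1.62. Markers of skeletal muscle, ACTA1 and MYL1, summed to between 0.885 and 1948 CPM, so single samples differed widely in muscle RNA, whose part in the results below was not tested.

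Levels are given as CPM after TMM normalization over the 23 pigs, a scale on which a gene can be compared between pigs but not with another gene, because gene length is not taken into account. Between 2437172 and 7979426 reads per pig fell on genes, which gave SLA-1 between 58 and 704 reads, TMP-SLA-3 between 136 and 470 and IRF1 between 34 and 134. A change in the level of a gene in such a mixed tissue can come from fewer cells of a type or from less RNA per cell, and these cannot be told apart. Each sample was 1 pig, and reads that fit more than 1 place in the genome were not counted, which can remove or shift reads between class I loci. The values of SLA-1 and TMP-SLA-3 are uncertain for that reason. The SLA-1 level was spread more widely between pigs of a diet than that of most genes, with a biological coefficient of variation of 0.365, higher than that of 86.7% of 11039 genes (median 0.222). TMP-SLA-3 had a coefficient of 0.273 and IRF1 one of 0.211, near the middle of all genes.

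SLA-1 encodes the heavy chain of a classical class I molecule. In group I the SLA-1 level ran from 13.9 to 47.2 CPM with a median of 33.8, and in group II from 22.4 to 76.9 with a median of 42.1. In group III, pigs 41, 43, 45, 46 and 48 had 48.3, 105, 150.2, 95.2 and 83.2 CPM. In group IV, pigs 49, 52, 53, 54 and 55 had 67.3, 50.8, 40.0, 109.6 and 39.2 CPM. All 5 pigs of group III lay above all 7 pigs of group I, though pig 41 exceeded the highest control by little. Group IV overlapped group I, with 3 of its 5 pigs above every control, and the highest of the 6 pigs of group II, pig 20 at 76.9 CPM, lay above pig 41 but below the other 4 pigs of group III. Across all genes passing the filter, 0.208% had every group III pig above every group I pig, and since this contrast chose SLA-1 nothing is read from that.

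**Figure D1:**
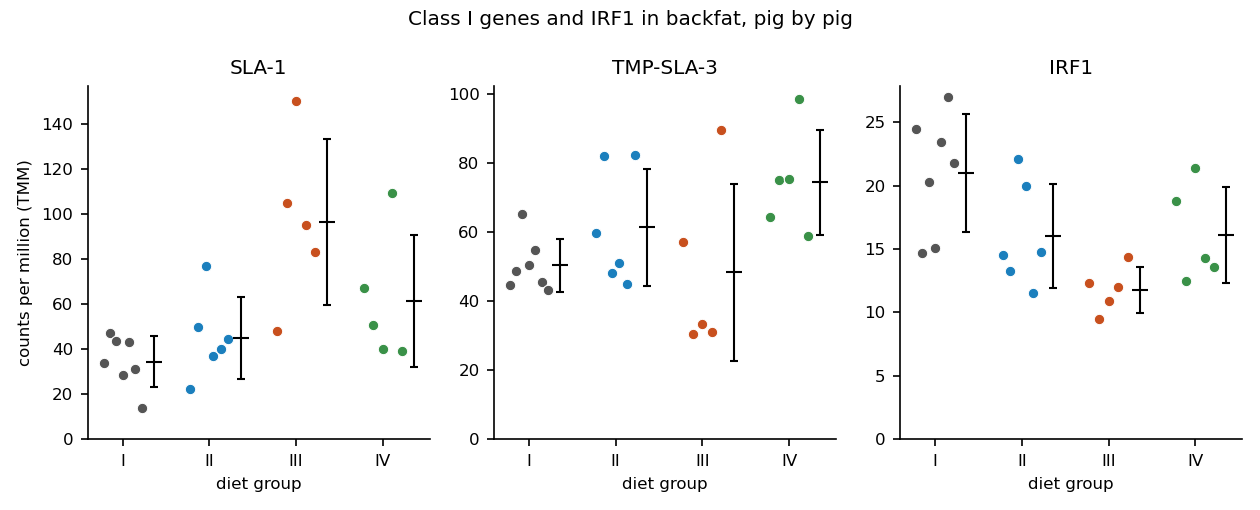
Levels of SLA-1, TMP-SLA-3 and IRF1 in CPM for the 7, 6, 5 and 5 pigs of diet groups I to IV, 1 point a pig, with the mean and SD of each group beside the points. SLA-1 in group III lies above group I without overlap, TMP-SLA-3 in group III splits into 3 low and 2 higher pigs, and IRF1 in group III lies below group I.

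As mean and SD, SLA-1 had 34.5 ± 11.5 CPM over the 7 pigs of group I, 45.0 ± 18.1 over the 6 of group II, 96.4 ± 36.9 over the 5 of group III and 61.4 ± 29.2 over the 5 of group IV. The order of the means was I, II, IV and III, and neighbours in that order overlapped pig by pig. Against group I, the fitted log2 fold change of SLA-1 was 1.49 ± 0.27 (SE) in group III, 0.83 ± 0.29 in group IV and 0.95 ± 0.30 with the 3 cDDGS groups together, a 2.80-fold, 1.78-fold and 1.93-fold difference. Group IV rested in part on pig 54, without which its difference from group I was 0.52 ± 0.26. It also moved with the share of uniquely mapped reads that fell outside annotated genes, with a mean and SD of 56.8 ± 2.53% over the 7 controls and 63.0 ± 5.05% over the 5 pigs of group IV, and highest in pig 54 at 71.3%. With that share as a covariate the SLA-1 difference between groups IV and I was 0.22 ± 0.34, while that between groups III and I was 1.48 ± 0.28.

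TMP-SLA-3 is annotated as a second class I heavy chain gene. Its level ran from 43.4 to 65.2 CPM in group I with a median of 48.7, and from 45.0 to 82.5 in group II with a median of 55.4. In group III, pigs 41, 43, 45, 46 and 48 had 57.1, 30.5, 33.3, 31.2 and 89.7 CPM. In group IV, pigs 49, 52, 53, 54 and 55 had 64.4, 75.3, 75.5, 98.6 and 58.8 CPM. The control pigs were close together, and group III fell on both sides of them, since pigs 43, 45 and 46 were below every control and pig 48 above every control. In group IV 3 of 5 pigs were above every control and the other two were within the control range. Pigs 43, 45 and 46 held the 3 lowest TMP-SLA-3 levels of the 23 pigs.

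As mean and SD, TMP-SLA-3 had 50.4 ± 7.60 CPM over the 7 pigs of group I, 61.4 ± 16.9 over the 6 of group II, 48.3 ± 25.6 over the 5 of group III and 74.5 ± 15.3 over the 5 of group IV. The difference from group I on the log2 scale was 0.57 ± 0.14 (SE) in group IV, a 1.48-fold higher level, -0.07 ± 0.24 in group III and 0.28 ± 0.19 for the 3 cDDGS groups together. From low to high the means were ordered III, I, II and IV, each overlapping the next. The group III difference hung on single pigs. Without pig 48 it was -0.42 ± 0.18 and without pig 43 it was 0.06 ± 0.25.

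IRF1 ran the other way. In group I it had between 14.7 and 27.0 CPM with a median of 21.8, and in group II between 11.5 and 22.1 with a median of 14.7. In group III, pigs 41, 43, 45, 46 and 48 had 12.3, 9.43, 10.9, 12.0 and 14.3 CPM. In group IV, pigs 49, 52, 53, 54 and 55 had 18.8, 12.5, 21.4, 14.3 and 13.6 CPM. The 5 pigs of group III stood below the 7 pigs of group I without overlap, but the highest of them, pig 48, was close to the lowest control, 14.3 against 14.7 CPM. Groups II and IV each had 3 pigs below every control and the rest inside the control range. Of all genes passing the filter, 0.127% had every group III pig below every group I pig, and this contrast chose IRF1 as well.

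As mean and SD, IRF1 had 21.0 ± 4.65 CPM over the 7 pigs of group I, 16.0 ± 4.11 over the 6 of group II, 11.8 ± 1.81 over the 5 of group III and 16.1 ± 3.81 over the 5 of group IV. The fitted log2 fold change against group I was -0.83 ± 0.18 (SE) in group III, -0.36 ± 0.19 in group IV and -0.50 ± 0.15 for the 3 cDDGS groups together. In the order III, II, IV and I of the IRF1 means each group overlapped the next. In group III the difference corresponds to 0.563 times the control level. Leaving out any single pig kept the group III difference between -0.91 and -0.76. Each of the 5 pigs of group III thus had less IRF1 and more SLA-1 than every control, while in group IV both class I genes had means above those of group I.

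**Figure D2:**
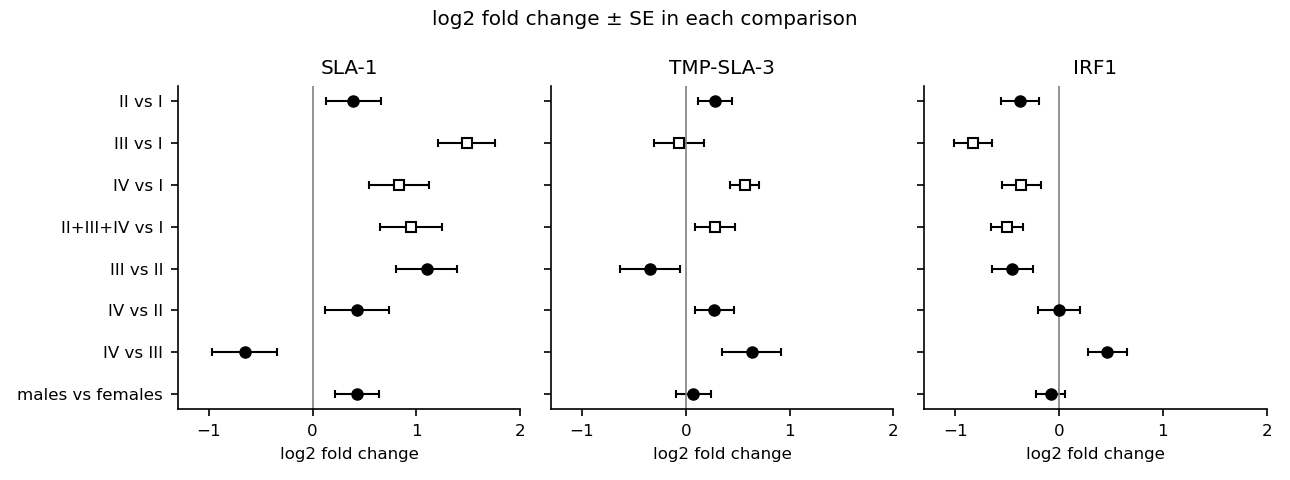
Fitted log2 fold change (horizontal axis) with its standard error for SLA-1, TMP-SLA-3 and IRF1 in the 8 comparisons, positive where the group named first had the higher level. Open squares mark the 3 comparisons that chose the genes and filled circles those that did not, and SLA-1 at 1.49 in group III against group I is the largest value shown.

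Group II against group I asks what cDDGS did with rapeseed oil in both diets. It did not choose the genes but uses the same control pigs as the comparisons that did. The group II pigs also took part in the comparison of the 3 cDDGS groups together with group I, which chose SLA-1. The SLA-1 test is therefore not independent of that choice. SLA-1 differed by 0.39 ± 0.27 (SE) on the log2 scale (edgeR adjusted p = 0.546), TMP-SLA-3 by 0.28 ± 0.16 (adjusted p = 0.463) and IRF1 by -0.38 ± 0.19 (adjusted p = 0.405). The 95% intervals ran from -0.17 to 0.96 for SLA-1, from -0.06 to 0.62 for TMP-SLA-3 and from -0.77 to 0.02 for IRF1. Thus 0 of the 3 genes were called by edgeR's quasi-likelihood test, beside 0.0291% of all genes tested, and 0 of the 3 had an unadjusted p under 0.05, beside 13% of all genes. DESeq2 also called 0 of the 3, beside 0.987% of all genes. The exact permutation test, two-sided over pigs on log2(CPM + 0.5), gave p = 0.281 for SLA-1, p = 0.167 for TMP-SLA-3 and p = 0.0606 for IRF1. The SLA-1 difference leaned on single pigs, at 0.16 ± 0.25 without pig 20 and 0.26 ± 0.23 without pig 8.

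Group III against group II replaces rapeseed oil by beef tallow in feed with cDDGS. SLA-1 was 1.10 ± 0.29 (SE) higher on the log2 scale in group III, a 2.14-fold difference with a 95% interval from 0.47 to 1.72, and 4 of the 5 group III pigs lay above all 6 pigs of group II. Its unadjusted edgeR p was 0.00202, but over all genes the adjusted p was 0.520 and DESeq2's adjusted p was 0.0783. The exact permutation test gave p = 0.0130, or 0.156 after adjustment over the 12 such tests of the 3 genes. IRF1 was lower in group III by a log2 fold change of -0.45 ± 0.19 (edgeR adjusted p = 0.772, exact permutation p = 0.0519), and 2 of its 5 pigs lay below all of group II. TMP-SLA-3 differed by -0.34 ± 0.29 (edgeR adjusted p = 0.928, exact permutation p = 0.212), at -0.70 ± 0.24 without pig 48 and -0.21 without pig 43. No gene of the 3 was called by edgeR, beside 0% of all genes, or by DESeq2, beside 0.202%. SLA-1 and IRF1 were 2 of the 3 genes with an unadjusted edgeR p under 0.05, as were 6.22% of all genes, and the group III pigs are those on which both were chosen. Groups II and III also both took part in the comparison of the cDDGS groups together with group I, which chose SLA-1.

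Group IV against group II replaces rapeseed oil by coconut oil. The group IV pigs are those on which TMP-SLA-3 was chosen. Both groups also took part in the comparison of the 3 cDDGS groups together with group I, which chose SLA-1. The tests of these genes are therefore not independent of that choice. SLA-1 differed by 0.43 ± 0.31 (SE; 95% interval from -0.23 to 1.08), TMP-SLA-3 by 0.27 ± 0.19 (from -0.13 to 0.67) and IRF1 by -0.00 ± 0.21 (from -0.44 to 0.44). edgeR's adjusted p was 0.990 or higher for each. The SLA-1 value was 0.12 ± 0.28 without pig 54, 0.29 without pig 17 and 0.66 without pig 20. The fitted means of IRF1 in these groups were equal within the error, and the interval leaves room for a difference of either sign. edgeR called 0 of the 3, beside 0% of all genes, none had an unadjusted p under 0.05, beside 4.99%, and DESeq2 called 0 of the 3, beside 0.0199%.

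Group IV against group III sets coconut oil against beef tallow. Both groups hold pigs whose values chose the genes, group III for SLA-1 and IRF1 and group IV for TMP-SLA-3, so these tests are not independent of that choice. SLA-1 was lower in group IV by a log2 fold change of -0.65 ± 0.31 (SE; 95% interval from -1.33 to 0.02, exact permutation p = 0.127). TMP-SLA-3 was 0.63 ± 0.29 higher (from 0.01 to 1.25, exact permutation p = 0.0794) and IRF1 0.47 ± 0.19 higher (from 0.05 to 0.88, exact permutation p = 0.0476). After adjustment over the 12 permutation tests these were 0.254, 0.190 and 0.182, and edgeR's adjusted p was 0.997 for each gene. edgeR and DESeq2 each called 0 of the 3 genes, beside 0% of all genes by either tool. TMP-SLA-3 and IRF1 had an unadjusted edgeR p under 0.05, as did 4.12% of all genes. The 5 pigs of group III and the 5 of group IV overlapped for every one of the 3 genes.

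The SLA-1 level was between 13.9 and 150.2 CPM in the 11 males with a median of 50.8, and between 22.4 and 105 CPM in the 12 females with a median of 39.6. With diet in the model, males were 0.43 ± 0.21 (SE) higher on the log2 scale (edgeR unadjusted p = 0.0512, adjusted p = 0.285). TMP-SLA-3 differed between males and females by 0.07 ± 0.17 (adjusted p = 0.849) and IRF1 by -0.08 ± 0.14 (adjusted p = 0.792). The sexes overlapped widely. edgeR called 0 of the 3 genes by sex, beside 0.954% of all genes, with 0 of the 3 at an unadjusted p under 0.05, beside 17.7%, and DESeq2 called 0, beside 2.37%. The 2 skeletal muscle markers, ACTA1 and MYL1, were higher in males, with a median log2 fold change of 2.42. Both had an unadjusted edgeR p under 0.05, beside 17.7% of all genes, and neither was called by edgeR or DESeq2. The part of muscle RNA in the differences by sex was not tested.

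The reads of the pair of class I loci can be set against each other within a pig, which takes out sequencing depth. The share of SLA-1 in the reads of SLA-1 and TMP-SLA-3 together is not corrected for gene length and serves to compare pigs. It ran from 24.3 to 49.2% in group I with a median of 40.5%, from 27.2 to 61.5% in group II with a median of 39.9%, and from 34.6 to 52.6% in group IV with a median of 40.3%. These 3 groups had like medians. In group III, pig 41 had 45.8% (exact Clopper-Pearson 95% interval 40.6 to 51.1%) and pig 48 had 48.1% (44.4 to 51.8%), inside the control range. Pig 43 had 77.5% (74.6 to 80.2%), with 679 reads of SLA-1 and 197 of TMP-SLA-3. Pig 45 had 81.9% (79.1 to 84.4%), with 704 and 156 reads, and pig 46 had 75.3% (72.3 to 78.1%), with 659 and 216 reads. The intervals cover counting error only. These were the 3 highest shares of the 23 pigs, and the next was the 61.5% (57.9 to 65.0%) of pig 20 in group II.

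**Figure D3:**
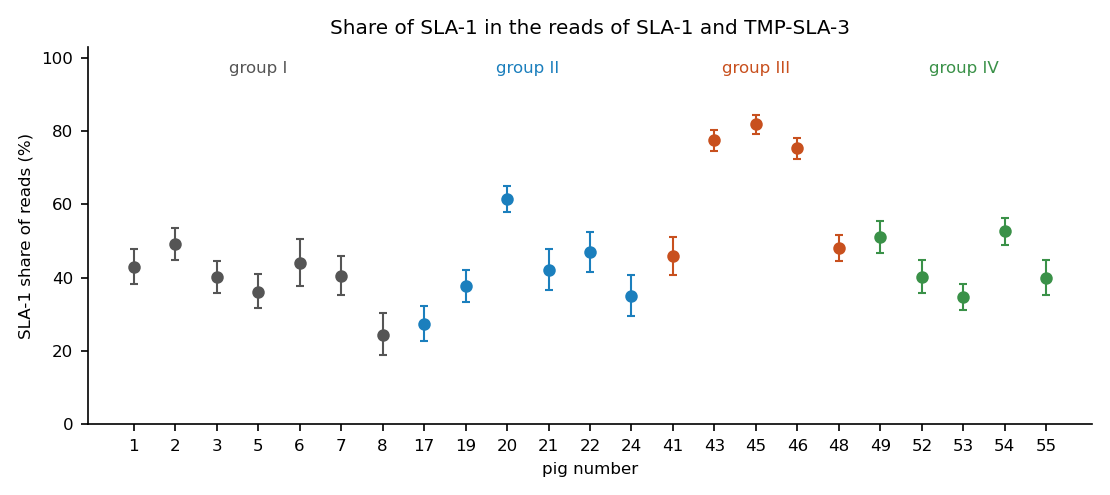
Share of SLA-1 in the reads of SLA-1 and TMP-SLA-3 (percent) for each of the 23 pigs, ordered by diet group and pig number, with exact 95% intervals that cover counting error. Pigs 43, 45 and 46 of group III stand at 75.3 to 81.9%, and the remaining 20 pigs lie between 24.3 and 61.5%.

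Group III was thus not uniform in its class I reads. The log2 ratio of SLA-1 to TMP-SLA-3 reads had an SD of 1.13 within group III, against 0.50 in group I, 0.71 in group II and 0.46 in group IV, and its mean was -0.63, -0.50, 1.04 and -0.37 in groups I to IV. SLA-1 was high in pigs 43, 45 and 46 where TMP-SLA-3 was low, and in pig 48 both genes were above every control. In pig 54 of group IV both were also high, with the highest TMP-SLA-3 level and the second highest SLA-1 level of all pigs. Summed over both loci, the mean and SD were 84.9 ± 17.2 CPM over the 7 controls, 106 ± 23.6 over the 6 pigs with rapeseed oil and cDDGS, 145 ± 32.7 over the 5 with beef tallow and 136 ± 42.4 over the 5 with coconut oil. The sum in group III ran from 105 to 183 CPM and in group I from 57.3 to 109, so the groups overlapped in the sum though not in SLA-1 alone. Alignments of reads that mapped to several places made up 26.4% of all alignments counted in pig 43, slightly above the 23.7 to 25.9% of group I. In pigs 45 and 46 their share lay inside that range, and in pig 54 it was 18.1%, the lowest of all. Such a read can be counted once for each place, so these are not shares of reads. Whether the genotype of a pig at these loci moved reads between them was not tested.

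**Figure D4:**
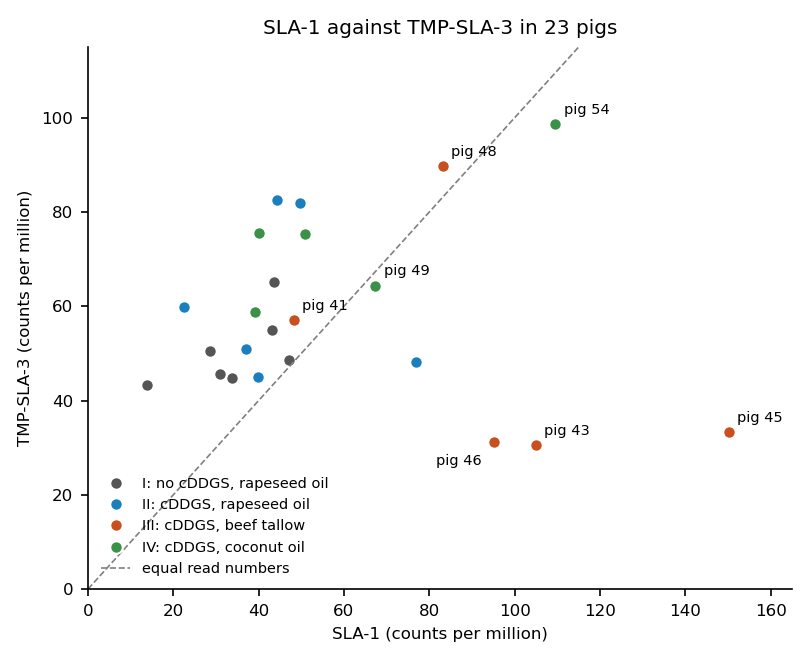
TMP-SLA-3 (vertical axis) against SLA-1 (horizontal axis) in CPM for 23 pigs, coloured by diet group, with a dashed line at equal read numbers. Pigs 43, 45 and 46 of group III lie at the lower right with 95.2 to 150.2 CPM of SLA-1 and 30.5 to 33.3 of TMP-SLA-3, while pigs 48 and 54 are high in both.

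Pooled over the diets, the 3 genes did not rise and fall together measurably. After subtraction of the diet means, Pearson's r over the 23 pigs was -0.00 for SLA-1 and TMP-SLA-3 (Spearman's rho 0.01), -0.04 for SLA-1 and IRF1 (rho -0.07) and 0.08 for TMP-SLA-3 and IRF1 (rho 0.05). The permutation p, with pigs shuffled within diets, was 0.986, 0.861 and 0.715 for r and 0.967, 0.773 and 0.819 for rho, and 0.986 and 0.967 after adjustment over the 3 pairs. Within group I the r of SLA-1 and TMP-SLA-3 was 0.60 and within group II -0.05, on 7 and 6 pigs. For groups III and IV, with 5 pigs each, no r was computed. In group III, SLA-1 was high in pigs 43, 45 and 46, where TMP-SLA-3 was low. In group IV, pig 54 had the highest level of both genes. The small pooled r therefore does not show that SLA-1 and TMP-SLA-3 varied independently within each diet.

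Among genes with a symbol, those whose log2 levels were most like those of each gene over the 23 pigs, after removal of the diet means, are given by Pearson's r as a description, and genes without a symbol are left out. For SLA-1 these were NME3 (0.72), ZNF319 (0.69), ZFAND2A (0.66), GAB2 (0.65) and ZMYM3 (0.63). For TMP-SLA-3 they were CCDC142 (0.74), MDM2 (0.72), TPM4 (0.67), SLC24A3 (0.67) and DHODH (0.66). For IRF1 they were ETV7 (0.86), an interferon-induced ETS family repressor, DNAAF10 (0.76), ZNF18 (0.70), KCTD20 (0.68) and IL12RB2 (0.68), a chain of the interleukin 12 receptor. They ranked between 1 and 7 of 11038 genes, where genes without a symbol took the ranks between them. Several had few reads, with a median of 1.62 CPM for ETV7, 1.45 for IL12RB2 and 2.17 for NME3.

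Other genes of class I presentation and of interferon signalling were read in the same comparisons, 47 to 49 tested genes from 6 lists. edgeR called 0 of them in each comparison, beside 0 to 0.954% of all genes. Those with an unadjusted edgeR p under 0.05 were 7 of 49 in group II against I (all genes 13%), 4 of 49 in group III (7.96%), 10 of 49 in group IV (14.2%) and 9 of 49 in the 3 groups together (15.8%). In group III against II they were 2 of 49 (6.22%), in group IV against II 4 of 48 (4.99%), in group IV against III 0 of 47 (4.12%) and by sex 10 of 48 (17.7%).

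Of 16 symbols for peptide supply and loading, 13 matched an identifier and 9 were tested. TAP1, one chain of the peptide transporter, the immunoproteasome subunits PSMB8 and PSMB9, and the proteasome activator subunit PSME1 were listed at 0 reads in all 23 pigs, as was IRF7, so nothing can be said of them. No gene of this list was called by edgeR or DESeq2 in any of the 8 comparisons, beside 0 to 0.954% of all genes by edgeR and 0 to 2.37% by DESeq2. The median log2 fold changes of the list against group I were 0.11, 0.14 and 0.32 for groups II, III and IV, where all genes tested had medians of 0.00, 0.00 and -0.01. In group IV 3 of the 9 had an unadjusted edgeR p under 0.05, all higher, beside 8.22% of all genes in that direction. One was CALR, the calreticulin chaperone of the loading complex, with a mean and SD of 244 ± 31.3 CPM over the 7 controls, 313 ± 33.4 over the 5 pigs of group IV and a log2 fold change of 0.36 ± 0.12 (SE; edgeR adjusted p = 0.197). ERAP1, which trims peptides in the endoplasmic reticulum, differed by 0.30 ± 0.11 between groups IV and II (adjusted p = 0.967).

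**Figure D5:**
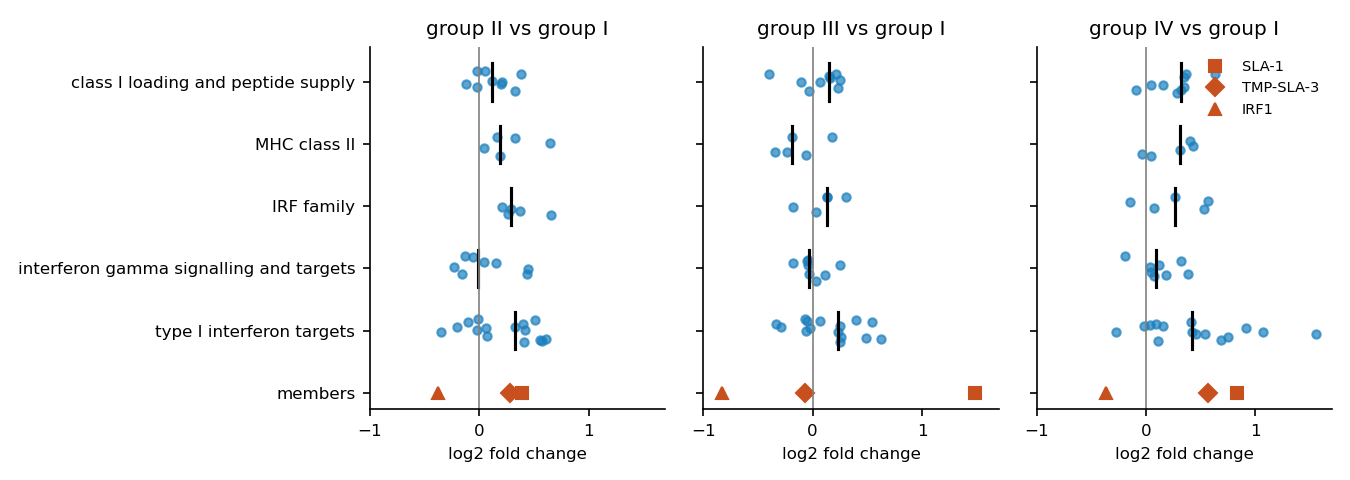
Log2 fold change against group I of the tested genes of 5 lists (blue points, median as a black bar) and of SLA-1, TMP-SLA-3 and IRF1 (orange square, diamond and triangle) in groups II, III and IV. In group III the list medians lie between -0.19 and 0.23, with SLA-1 at 1.49 and IRF1 at -0.83 outside the range of all list genes. Group III against group I chose SLA-1 and IRF1, and group IV against group I chose TMP-SLA-3. Nothing is therefore read from the place of these genes beside the lists.

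Within the IRF family, IRF2 stood at a mean and SD of 28.2 ± 3.12 CPM over the 7 pigs of group I, 36.4 ± 7.52 over the 6 of group II, 34.9 ± 2.39 over the 5 of group III and 40.6 ± 6.35 over the 5 of group IV. Group I had the lowest mean of IRF2 and the highest of IRF1. Its log2 fold change against group I was 0.37 ± 0.14 (SE; edgeR adjusted p = 0.296) in group II, 0.31 ± 0.11 (0.555) in group III, 0.53 ± 0.12 (0.135) in group IV and 0.40 ± 0.10 (0.0983) in the 3 groups together. DESeq2 called IRF2 in group IV (adjusted p = 0.0231, beside 1.61% of all genes) and in the 3 groups together (0.0256, beside 1.74%), where edgeR did not. IRF2 is also on the study's own gene list from these samples, so its direction is not independent evidence. The other 4 tested family members were not called by either tool, and IRF5, a factor of myeloid cells, differed by -0.81 ± 0.30 between groups IV and II (edgeR adjusted p = 0.967).

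Interferon targets and MHC class II genes gave no call by edgeR or DESeq2 in the 8 comparisons. Over all genes edgeR called 0 to 0.954% and DESeq2 0 to 2.37%, so nothing is read from this about the lists. DESeq2 gave no adjusted p for some list genes, among them MX1 in group IV against I, where edgeR had 1.07 ± 0.37 (SE; adjusted p = 0.220). The 15 tested type I interferon targets had median log2 fold changes against group I of 0.32, 0.23 and 0.42 for groups II, III and IV. IFIH1, an RNA sensor, was 0.56 ± 0.16 (SE) higher in group II (edgeR adjusted p = 0.224), MX2, an antiviral GTPase, 0.54 ± 0.22 higher in group III (0.570) and 0.92 ± 0.30 higher in group IV (0.202), and STAT2, a signal carrier of type I interferon, differed by -0.33 ± 0.12 in group III (0.555). For the 3 groups together MX2 was 0.62 ± 0.22 higher (0.190) and STAT2 differed by -0.27 ± 0.09 (0.149). The list summed to 890 CPM in pig 49 of group IV, against 344 to 359 in the other 4 pigs. Without pig 49, a setting chosen after seeing the data, the list's median in group IV was -0.00 and the difference of MX2 was 0.50 ± 0.24 (0.513). Pig 49 ranked 7 of the 23 pigs in SLA-1 at 67.3 CPM and 9 in IRF1 at 18.8 CPM. Its IRF family genes other than IRF1 summed to 110.7 CPM, the highest of the 23 pigs. Its class I loading genes summed to 1642 CPM, the highest of group IV. Pig 54, with the highest TMP-SLA-3 level, had the lowest type I target sum of group IV at 344 CPM. How these values relate to the levels of the class I genes was not tested. By sex, with diet in the model, 6 of the 15 had an unadjusted p under 0.05, all lower in males, beside 9.15% of all genes in that direction. They included MX1 at -0.60 ± 0.21 (adjusted p = 0.153), OAS2 at -0.56 ± 0.20 (0.164) and IFIH1 at -0.49 ± 0.19 (0.182). Pig 49 is a female and had the highest level of the 23 pigs in 12 of the 15 genes. Without it, again a setting chosen after seeing the data, 5 of the 15 had an unadjusted p under 0.05, all lower in males, beside 9.45% of all genes, and MX1 stood at -0.39 ± 0.13 (0.139), OAS2 at -0.38 ± 0.16 (0.204) and IFIH1 at -0.33 ± 0.13 (0.194).

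The 8 tested genes of interferon gamma signalling, the pathway that induces IRF1, had medians against group I of -0.01, -0.04 and 0.09 in groups II, III and IV. IFNGR1, a receptor chain, differed by -0.48 ± 0.21 (SE) between groups III and II (edgeR adjusted p = 0.770), WARS1, an interferon-induced aminoacyl-tRNA synthetase, by 0.60 ± 0.21 between groups IV and II (0.967) and JAK2 by -0.30 ± 0.15 between groups IV and III (0.997). The 7 tested NF-kappaB regulators had medians of -0.09, -0.04 and -0.00. Among the 5 matched class II genes, SLA-DMB, a chain of the peptide exchanger, was 0.65 ± 0.23 higher in group II than in group I (0.263) and -0.47 ± 0.22 in group III against group II (0.793). SLA-DQB1 and SLA-DMA were 0.46 ± 0.22 and 0.55 ± 0.26 higher in group IV than in group III (0.997 for both), and USP18, a brake on interferon signalling, was 0.60 ± 0.31 higher in group III than in group II (0.836).

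Markers of immune cells were read beside these values. The 12 matched rows of T and NK cell markers summed to a mean and SD of 41.9 ± 9.18, 43.9 ± 13.0, 43.2 ± 10.9 and 45.5 ± 4.82 CPM in groups I to IV, of which CD247 was the largest, while CD3D reached at most 2.92 CPM and CD8A 1.88. The 6 matched macrophage markers summed to 77.7 ± 39.6, 181 ± 58.9, 117 ± 47.3 and 117 ± 42.8 CPM in groups I to IV. MRC1 was the largest of them, at 53.4 ± 30.1, 121 ± 36.7, 80.2 ± 34.0 and 80.9 ± 32.8 CPM. CSF1R, which did not pass the filter on low counts, had 1.87 ± 3.02, 3.65 ± 3.06, 0.573 ± 0.709 and 0.661 ± 0.704 CPM. Its means in groups III and IV were thus below that of group I, while those of the other markers were above it in each cDDGS group. The mean macrophage sum was highest in group II, and that of SLA-1 in group III. Of 4 macrophage markers tested in group II against I, edgeR called 0, beside 0.0291% of all genes, and DESeq2 2, MRC1 and C1QA, beside 0.987%. All 4 had an unadjusted edgeR p under 0.05, beside 13% of all genes. For the 3 cDDGS groups together DESeq2 also called C1QA (adjusted p = 0.0173, beside 1.74%). The 4 adipocyte markers summed to 2441 ± 305 CPM in group I and to 2096 ± 301, 2120 ± 238 and 2148 ± 202 in groups II to IV. CIDEC, a lipid droplet protein, had log2 fold changes against group I of -0.44 ± 0.17 (SE), -0.42 ± 0.18 and -0.38 ± 0.17 in groups II to IV, and LIPE of -0.50 ± 0.15, -0.33 ± 0.19 and -0.52 ± 0.17. PPARG went the other way, at 0.33 ± 0.21, 0.20 ± 0.17 and 0.34 ± 0.26. PLIN1 stood at -0.12 ± 0.15, -0.14 ± 0.12 and -0.06 ± 0.11, so the markers did not move together. edgeR called 0 of these 4 markers in each comparison, beside 0 to 0.954% of all genes. DESeq2 called CIDEC for the 3 groups together (log2 fold change -0.42 ± 0.11, adjusted p = 0.0377), beside 1.74% of all genes. The 4 endothelial markers summed to 745 ± 189, 825 ± 152, 885 ± 134 and 870 ± 106 CPM, of which PECAM1 was the largest. Its log2 fold changes against group I were 0.19 ± 0.19 (SE), 0.27 ± 0.18 and 0.26 ± 0.18 in groups II to IV. TEK stood at -0.18 ± 0.13, -0.04 ± 0.15 and -0.27 ± 0.13. KDR stood at -0.09 ± 0.18, 0.19 ± 0.23 and 0.06 ± 0.20, and ESAM at 0.28 ± 0.38, 0.06 ± 0.34 and 0.13 ± 0.34. The endothelial markers did not move together either. The part of these cells in the levels of SLA-1, TMP-SLA-3 and IRF1 was not tested.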

How the data were processed

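RNA-seq of backfat from 23 pigs was used. The paper reports that the RNA was partly degraded and that a library kit accepting lower RNA integrity was chosen for this reason. The authors prepared stranded total RNA libraries, mapped the reads with TopHat and used HTSeq to count them on Ensembl genes. The authors deposited these whole-number counts without normalization. The build is named as Sus scrofa 11.1 with an annotation release that may belong to an older one, so no positions are given. Summary rows for reads on no gene held 62.6 to 76.7% of reads per pig and stayed out of library sizes and tests. How repeat sequencing runs were merged is not given in the sources used here. Diet and sex came from the labels, and RNA integrity from the study's supplement.

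Counts were analysed in R 4.3.3 with edgeR 4.0.16 (TMM, filterByExpr, glmQLFit and glmQLFTest on the pigs of the groups compared, Benjamini-Hochberg adjustment over all genes tested). A gene was called at an adjusted p under 0.05 and a fold change above 1.3. Single genes were also compared by exact two-sided permutation of pigs on log2(CPM + 0.5), with 12 tests adjusted together, and correlations by 100000 permutations within diets (scipy 1.17.1). Scripts were tested on simulated data.

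SLA-1 and TMP-SLA-3 are named as in the study's hand-made annotation, and 11804 of the 25322 identifiers had a symbol in the gene name table used for the rest. Named genes were the 3 genes, each list gene called by edgeR in a comparison (there were 0), the 3 list genes of smallest p in each comparison and the 5 genes with a symbol most like each of the 3. Genes and lists were chosen with earlier results of these data known. The ratio of class I reads was planned with a permutation test but is given as a description, because it combines the chosen genes. Alternatives were DESeq2 1.42.0, median-ratio size factors, no low-count filter, all pigs in 1 fit, a covariate for sex, RNA integrity or the share of reads outside genes, and leaving out each pig. Sequences were not analysed here.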

Additional observations from a re-analysis of the deposited data

Results flagged for a closer look

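The 4 diet groups were examined for a pig far from the rest in 8 measures, the levels of SLA-1, TMP-SLA-3 and IRF1, the share of SLA-1 reads and the summed CPM of 4 lists (type I interferon targets, interferon gamma signalling, class I loading and the IRF family), 32 groups in all, of which chance flags about 1 in 20. No pig stood apart in this sense for SLA-1, TMP-SLA-3, IRF1 or the share of SLA-1 reads. For the type I interferon targets, pig 49 of group IV summed to 890 CPM and its nearest group mate to 359, and pig 1 of group I to 450 CPM and its nearest to 369. In pig 49 the level of SLA-1 was 67.3 CPM and that of IRF1 18.8 CPM, and in pig 1 they were 33.8 and 24.5 CPM, all inside the range of their diet groups.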

How the results depend on the processing

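Of 159 recomputed log2 fold changes of the 3 genes under other settings than leaving out a pig, 4 changed sign and 1 moved by more than the spread between pigs. The other 154 kept their direction and their side of the threshold or, in the comparisons that chose the genes, moved by less than that spread. No adjusted p in a comparison that did not choose the genes fell under 0.05, the smallest being 0.0783 (SLA-1, group III against II, DESeq2). The share of reads outside genes as covariate moved SLA-1 in group IV against I from 0.83 to 0.22; the cause was not tested. IRF1 in group IV against II, at -0.00, turned to 0.0039 with DESeq2, 0.0035 with median-ratio size factors, 0.023 without the low-count filter and 0.0075 with all pigs in 1 fit; the cause was not tested. DESeq2 called 1 list gene, IRF2, in group IV and in the 3 groups together against I, where edgeR called 0. Median-ratio levels and ratios without a pseudocount all moved by less than 1 SD. Leaving out 1 pig at a time, IRF1 in group IV against II ran from -0.13 to 0.12 and TMP-SLA-3 in males against females from -0.054 to 0.14, and the number of list genes called for the 3 groups together from 0 to 1, which was IRF2 without pig 21. SLA-1 ran from 1.27 to 1.65 in group III and from 0.52 to 0.96 in group IV against I, and TMP-SLA-3 in group III from -0.42 to 0.06. In group IV against III, SLA-1 was -0.97 without pig 54 and -1.13 with the share of reads outside genes as covariate, and TMP-SLA-3 0.98 without pig 48. The correlations pooled over the diets turned sign without the 2 pigs farthest from the median (SLA-1 with TMP-SLA-3 0.016, with IRF1 0.022). For SLA-1 with TMP-SLA-3 the pooled value also did so with median-ratio size factors (0.0025), and all of these values were near 0. No paired analysis was possible because no 2 groups share a pig number. Between 34 and 134 reads of IRF1 per pig limit how small a difference could be seen.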
